A study of Mus musculus with 16 samples.

Results

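The genes described here encode the scaffold of the sarcomere, the contractile unit of striated muscle: the Z-disc, the titin filament and the proteins that bind and cap the thin filament. They are the 10 genes Ttn, Neb, Actn2, Actn3, Ldb3, Tcap, Mybph, Tmod1, Xirp1 and Des, taken by symbol from the 24497 genes in the deposited tables. For each of them the estimated counts and the TPM (a transcript abundance corrected for length and scaled to the same sum in each library) of its RefSeq transcripts were summed in each of the 16 libraries. The libraries hold poly(A) RNA from C2C12, a mouse skeletal myoblast line that the labels give the strain background C57BL/6, and form 8 groups of 2. Of these groups 4 carry the genotype label MYOD-/-, cells edited with CRISPR-Cas9 and screened as single cells, and 4 carry the label wild type (WT). How many edited clones stand behind a group was not given in the sources used here. Within each genotype label, cells were stably transfected either with a construct expressing spliced MUNC, which is a noncoding RNA made upstream of Myod1, or with the empty vector (EV), so that all groups carry a transfected vector. Each of these lines was sampled as differentiating cells (DM) and as proliferating cells (GM). Nothing in the labels tells if the 2 libraries of a group came from separate cultures, and p-values then measure the spread between these libraries, which may be technical.

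Z-discs border each sarcomere and anchor the thin actin filaments of neighbouring sarcomeres, which alpha-actinin cross-links there. Titin, the product of Ttn, spans from the Z-disc to the M-band as a molecular spring, and nebulin, the product of Neb, runs along the thin filament, whose pointed end is capped by tropomodulin. When myoblasts leave the cell cycle and fuse, these proteins assemble first at premyofibrils and later in regular sarcomeres, and desmin filaments link the Z-discs to each other and to the membrane. In bulk RNA, fewer cells that express a gene and less RNA of it per cell cannot be told apart.

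The total estimated count per library was between 35832002 and 107732971. Changes are log2 fold changes ± SE from 1 edgeR model of the 8 group means, called where the p of its quasi-likelihood F test, adjusted by the Benjamini-Hochberg method across all 14972 genes tested, was under 0.05. Levels are given within a gene as CPM (counts scaled to library size with TMM factors, not corrected for length) and between genes as TPM. The transcripts of Myod1 went against the genotype labels. Myod1 stood at 16.01 and 15.0 CPM in the MYOD-/- labelled MUNC DM libraries and at 24.4 and 33.1 CPM in the MYOD-/- labelled EV DM libraries, against 3.18 and 1.70 CPM in the WT-labelled MUNC DM libraries and 0.143 and 0.0136 CPM in the WT-labelled EV DM libraries. Which part of the gene was deleted was not given in the sources used here. Each direction between genotypes below is therefore a direction between labels. MUNC, listed as Gm45923, reached 2012 and 2670 CPM in the WT-labelled MUNC DM libraries, against 8.95 and 1.15 CPM in the WT-labelled EV DM libraries. In the MYOD-/- labelled cells it reached 43.0 and 50.4 CPM in the MUNC DM libraries, against 12.4 and 2.23 CPM in the EV DM libraries. A further difference divides the replicates: Zrsr1 took between 1.49% and 13.0% of all counts in each replicate 2 library, against between 0.00793% and 0.0344% in each replicate 1 library. By construction this lowers the other TPM values of replicate 2, and its part in the differences between replicates below was not tested.

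The summed level of the differentiated muscle markers Myog, Myh3, Acta1, Ckm, Tnnt3 and Mymk was 529 to 677 CPM in the MYOD-/- labelled MUNC DM libraries and 427 to 455 CPM in the MYOD-/- labelled EV DM libraries, against 36.6 to 95.8 CPM in the WT-labelled MUNC DM libraries and 2.65 to 9.72 CPM in the WT-labelled EV DM libraries. In all GM libraries it lay between 2.07 and 11.9 CPM, and the WT-labelled EV DM libraries were inside that range. The sum hides unlike moves in that line, where 3 of the 6 markers were called higher and 0 lower in DM (19.2% and 18.3% of all genes). Myog had 1.16 and 0.733 CPM in DM there, against 0.0485 and 0.0191 CPM in GM. Acta1 went the other way, with 1.24 and 0.204 CPM in DM and 5.26 and 4.88 CPM in GM. The summed fibroblast markers (Pdgfra, Dpt, Lum, Pi16, Tcf21 and Thy1) were at 53.0 to 231 CPM in MYOD-/- labelled DM and 13.8 to 34.6 CPM in WT-labelled DM. Both ends of the first range came from the MYOD-/- labelled MUNC DM libraries. Tcf21 was at 0 counts in all 4 DM groups and Thy1 at 0 in the WT-labelled ones. Of the 4 fibroblast markers tested, 1 was called higher and 0 lower with the MYOD-/- label in each DM setting. Of all genes, 15.3% were called higher and 16.1% lower in EV DM, and 12.8% and 9.89% in MUNC DM. The summed smooth muscle markers (Acta2, Tagln, Cnn1, Myh11, Smtn and Actg2) were at 1936 to 2297 CPM in MYOD-/- labelled DM, against 391 to 1126 CPM in GM. In the WT-labelled EV line they were at 279 to 370 CPM in DM, against 1696 to 1750 CPM in GM. The WT-labelled MUNC line had 1214 to 1386 CPM in DM and 1261 to 2473 CPM in GM. The summed myoblast markers (Myod1, Myf5, Pax7, Cdh15, Chrna1 and Itga7) were at 1413 to 1828 CPM in MYOD-/- labelled DM, against 398 to 674 CPM in WT-labelled DM. In GM they were lower, at 399 to 723 CPM with the MYOD-/- label and 221 to 416 CPM with the WT label. Of the 5 myoblast markers tested, 3 were called higher and 0 lower with the MYOD-/- label in EV DM, and 2 and 0 in MUNC DM. These counts are to be read against the same shares of all genes. The summed endothelial markers (Pecam1, Cdh5, Kdr and Tek) were at 4.10 to 15.8 CPM in the MYOD-/- labelled DM libraries, against 0.23 to 0.57 CPM in the WT-labelled DM libraries. The 6 heart markers summed to 8.61 to 17.0 CPM in DM libraries and 9.21 to 34.3 CPM in GM libraries. Myl7 was at 0 counts in all 4 DM groups. Of the 3 tested, 1 was called higher and 0 lower in DM in each MYOD-/- labelled line (24.4% and 23.5% of all genes higher with MUNC and EV). In the WT-labelled lines 0 were higher, and 1 was lower with MUNC and 2 with EV (19.2% and 18.3% of all genes lower). The adipocyte and leukocyte lists stayed under 1 and under 2 CPM. The part of these lists in the results below was not tested. The summed cycling markers (Mki67, Top2a, Ccnb1 and Cdk1) were at 453 to 625 CPM in DM libraries and 1347 to 2045 CPM in GM libraries.

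RefSeq (GRCm38.p6) promoter sequence was at hand for 6 of the 10 genes, and the 250 bases upstream of the listed start site are shown because 4 of these genes were called higher in DM in both MYOD-/- labelled lines while Actn2 and Des were not called. Each is given 5′ to 3′ on the strand of the gene. Capitals mark matches on either strand to 4 motifs: the E-box (CANNTG), which MYOD and other helix-loop-helix factors bind, the M-CAT element (CATTCC), bound by TEAD factors, the MEF2 site and the CArG box, bound by serum response factor.
Ttn: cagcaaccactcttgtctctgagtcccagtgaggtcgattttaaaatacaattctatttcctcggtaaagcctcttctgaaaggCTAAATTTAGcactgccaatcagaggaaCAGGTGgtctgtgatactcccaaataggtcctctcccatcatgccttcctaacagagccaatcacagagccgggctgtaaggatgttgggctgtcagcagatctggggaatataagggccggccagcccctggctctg
Mybph: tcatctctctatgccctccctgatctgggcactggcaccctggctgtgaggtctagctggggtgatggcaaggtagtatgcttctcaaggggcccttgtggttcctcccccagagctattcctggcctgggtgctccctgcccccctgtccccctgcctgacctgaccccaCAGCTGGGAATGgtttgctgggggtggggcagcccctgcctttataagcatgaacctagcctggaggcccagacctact
Tmod1: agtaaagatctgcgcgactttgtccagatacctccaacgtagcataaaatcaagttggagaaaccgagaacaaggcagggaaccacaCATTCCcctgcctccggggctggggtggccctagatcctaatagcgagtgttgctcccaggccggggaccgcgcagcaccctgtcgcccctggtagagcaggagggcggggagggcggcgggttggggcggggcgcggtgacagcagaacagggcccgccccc
Ldb3: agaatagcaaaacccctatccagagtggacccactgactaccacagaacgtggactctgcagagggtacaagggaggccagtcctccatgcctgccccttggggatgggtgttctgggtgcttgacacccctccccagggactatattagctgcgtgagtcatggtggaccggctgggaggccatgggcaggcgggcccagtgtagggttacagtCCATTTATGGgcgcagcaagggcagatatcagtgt
Actn2: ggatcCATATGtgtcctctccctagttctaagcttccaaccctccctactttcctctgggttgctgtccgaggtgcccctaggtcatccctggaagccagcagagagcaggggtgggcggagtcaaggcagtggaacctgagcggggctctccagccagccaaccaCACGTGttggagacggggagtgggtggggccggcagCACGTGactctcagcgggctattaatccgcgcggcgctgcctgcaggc
Des: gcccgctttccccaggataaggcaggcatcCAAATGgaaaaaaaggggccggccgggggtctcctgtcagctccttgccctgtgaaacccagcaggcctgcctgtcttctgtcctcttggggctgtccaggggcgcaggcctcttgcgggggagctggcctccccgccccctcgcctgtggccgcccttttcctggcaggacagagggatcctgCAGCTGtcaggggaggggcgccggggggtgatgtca
The Ttn window (chr2:76982548-76982797, minus strand) holds a CAGGTG 138 bases and a MEF2 site 166 bases upstream of the start. The Mybph window (chr1:134193198-134193447, plus strand) holds a CAGCTG 79 bases upstream that adjoins an M-CAT element, while the Tmod1 window (chr4:46038972-46039221, plus strand) holds an M-CAT element 163 bases upstream and no E-box. The Ldb3 window (chr14:34588682-34588931, minus strand), the first of the 2 start sites listed for that gene, holds a CArG box 35 bases upstream. The Tmod1 and Ldb3 windows lie inside the spans of their genes, which begin at 46038940 for Tmod1 and at 34590314 for Ldb3. Sequence upstream of these outermost starts was not searched. The windows of the genes that were not called hold matches as well: Actn2 (chr13:12340733-12340982, minus strand) has E-boxes 245, 84 and 48 bases upstream, and Des (chr1:75360042-75360291, plus strand) has them at 220 and 36 bases. Of 32851 mouse promoter windows of this length, 66.2% hold an E-box, 13.0% the form CAGCTG (itself an E-box), 12.6% an M-CAT element, 2.92% a MEF2 site and 1.47% a CArG box. A match is a stretch of letters, with no binding measured here.

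Per length of transcript, the scaffold of the MYOD-/- labelled DM libraries was led by Actn3, at 63.7 to 84.2 TPM, followed by Tmod1 (28.0 to 49.6 TPM), Mybph (18.7 to 54.5 TPM) and Ldb3 (20.7 to 28.5 TPM). Des (13.5 to 16.9 TPM), Ttn (6.30 to 15.1 TPM) and Xirp1 (4.69 to 17.3 TPM) came next, and Neb reached 1.21 to 1.53 TPM. Actn2, the other alpha-actinin of the sarcomere, was at 0.123 to 0.401 TPM and Tcap, the titin cap, at 0.0556 to 0.134 TPM in the same libraries. The genes differ greatly in length: the files hold a Ttn transcript of 101674 bases, a Neb transcript of 22489 bases and a Tcap transcript of 948 bases. In counts, which are not divided by length, Ttn was the highest of the 10 genes in each MYOD-/- labelled DM library, at 265 to 669 CPM. In the WT-labelled EV DM libraries the order differed, with Des highest at 29.8 and 25.1 TPM, then Actn3 at 15.6 and 9.57 TPM and Ldb3 at 13.1 and 9.59 TPM, and with the other 7 genes under 0.7 TPM.

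**Figure D1:**
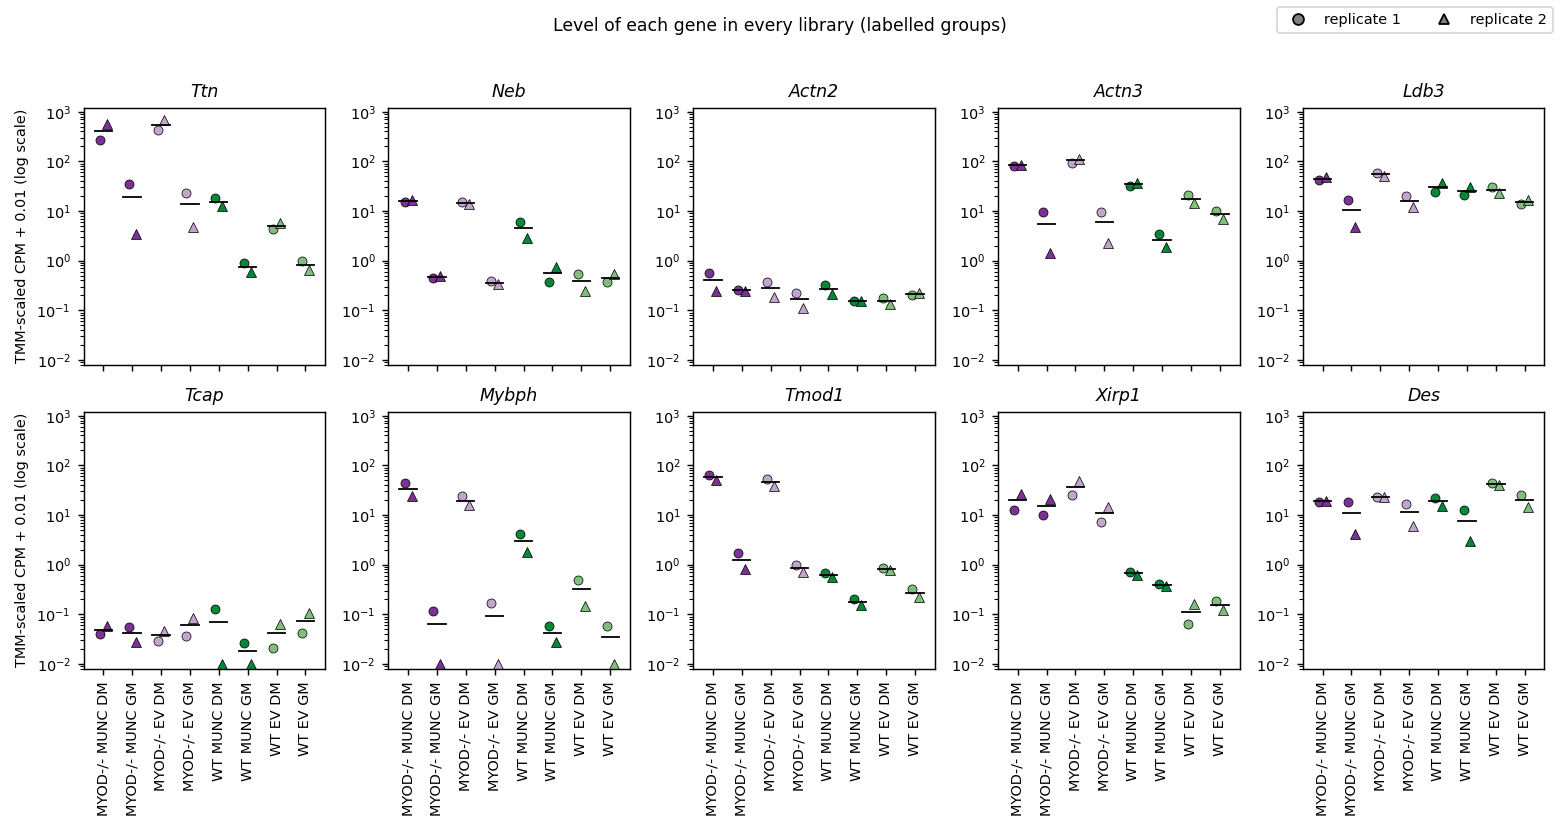
CPM (TMM-scaled, plus 0.01, log axis) of the 10 genes in all 16 libraries, 1 panel a gene, with circles for replicate 1, triangles for replicate 2 and a bar at the mean of each labelled group. Ttn, Neb, Actn3, Mybph and Tmod1 are high in the MYOD-/- labelled DM groups, Xirp1 is high in all 4 MYOD-/- labelled groups, and Actn2 and Tcap stay under 1 CPM everywhere.

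Differentiation was compared first, DM against GM within each line. Of the 9 members that passed the filter on low counts, 6 were higher and 0 lower in DM in the MYOD-/- labelled MUNC line, where 24.4% of all genes tested were called higher and 20.4% lower. In the MYOD-/- labelled EV line 7 were higher and 0 lower (23.5% of all genes higher and 19.7% lower). The WT-labelled MUNC line had 5 higher and 0 lower (20.5% and 19.2% of all genes), and the WT-labelled EV line 1 higher and 0 lower (19.2% and 18.3%). The median change of the 9 members was 3.91, 4.14, 1.84 and 1.05 on the log2 scale in these 4 lines in that order, against medians of 0.05, 0.08, 0.06 and 0.02 over all genes. The 10th member, Tcap, had 0 to 6 counts in every library and was not tested.

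Ttn and Mybph, the genes of titin and of a thick-filament protein, were called higher in DM in 3 of the 4 lines. Ttn (chromosome 2, 76703980 to 76982557 of GRCm38) had 265 and 554 CPM in the MYOD-/- labelled MUNC DM libraries, against 34.4 and 3.38 CPM in the GM libraries, and 423 and 669 CPM in the MYOD-/- labelled EV DM libraries, against 22.6 and 4.71 CPM in GM. In the WT-labelled MUNC line it had 17.9 and 12.3 CPM in DM and 0.871 and 0.578 CPM in GM, and in the WT-labelled EV line 4.40 and 5.63 CPM in DM and 0.97 and 0.648 CPM in GM. DM and GM libraries were apart in each line, and within both MYOD-/- labelled GM groups replicate 1 was far above replicate 2. The log2 fold change was 4.44 ± 0.97 (adjusted p = 0.00355) in the MYOD-/- labelled MUNC line, 5.32 ± 1.01 (adjusted p = 0.0016) in the MYOD-/- labelled EV line and 4.37 ± 1.04 (adjusted p = 0.0064) in the WT-labelled MUNC line. With EV in WT-labelled cells the value of 2.62 ± 0.99 missed the threshold in edgeR (adjusted p = 0.0585) and passed it in DESeq2 (adjusted p = 0.021). Without replicate 1 of MYOD-/- MUNC GM the first of these became 6.93, and without replicate 2 of WT MUNC GM the call in that line was lost (adjusted p = 0.054).

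Mybph encodes a myosin-binding protein H of the thick filament, related to the myosin-binding protein C family. It lies on chromosome 1 (134193418 to 134201237) and overlaps Adora1, and whether counting used strand was not stated in the labels. It had 43.5 and 24.6 CPM in the MYOD-/- labelled MUNC DM libraries, against 0.107 and 0 CPM in GM. The MYOD-/- labelled EV line had 23.6 and 15.6 CPM in DM, against 0.161 and 0 CPM in GM. The WT-labelled MUNC line had 4.16 and 1.75 CPM in DM, against 0.0475 and 0.0181 CPM in GM. The gene was thus close to its detection limit in proliferating cells and reached its top level in the MYOD-/- labelled DM groups. The fold changes were 9.16 ± 1.03 (adjusted p = 6.3e-05), 7.93 ± 1.02 (adjusted p = 0.00014) and 6.36 ± 1.07 (adjusted p = 0.00089) on the log2 scale in these 3 lines. Without replicate 1 of the GM group, whose partner holds 0 counts, the first became 14.06 and the second 13.28, values that rest on a group at 0. In the WT-labelled EV line Mybph had 0.483 and 0.136 CPM in DM and 0.0485 and 0 CPM in GM, or 54 counts in DM against 3 in GM, a depth-scaled ratio of 12.5 (95% exact interval for counting error 4.05 to 62.4). Its fitted change there, 3.50 ± 1.31, was not called by edgeR (adjusted p = 0.056) and was called by DESeq2 (adjusted p = 0.046).

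**Figure D2:**
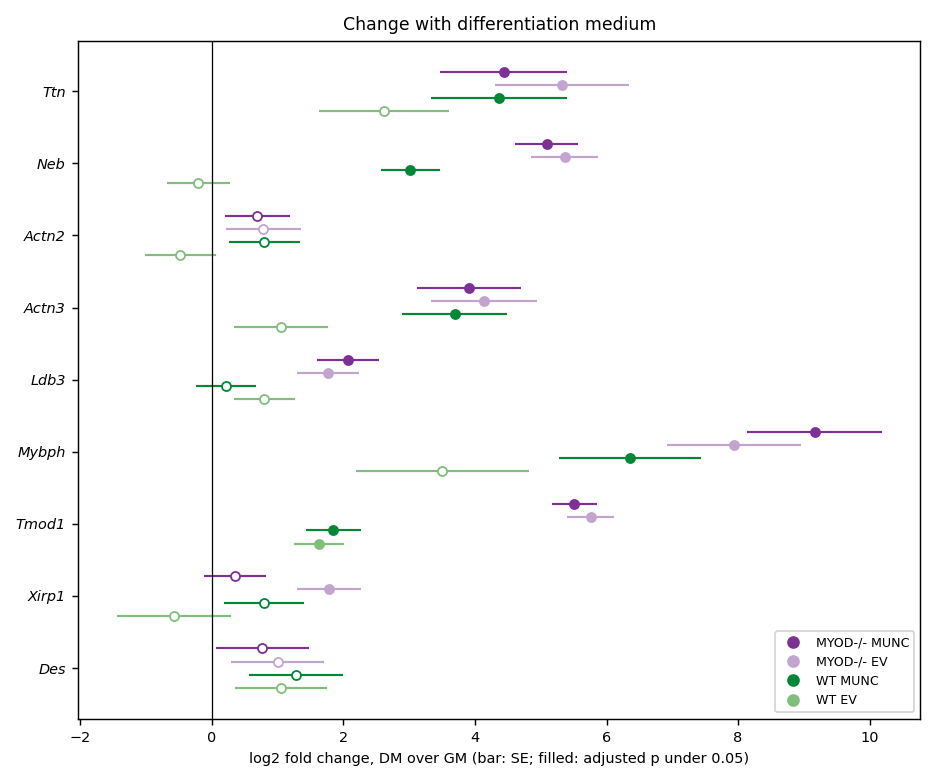
Log2 fold change of DM over GM (x axis) for the 9 members tested (rows) in the 4 lines, with bars of 1 SE and filled points where the adjusted p is under 0.05. Neb and Tmod1 lie beyond 5 in both MYOD-/- labelled lines, and Actn2 and Des have no filled point.

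Among the Z-disc genes, Actn3 and Ldb3 moved and Actn2 did not pass the test. Actn3, the alpha-actinin of fast muscle fibres, lies on chromosome 19 (4861216 to 4877909). It had 82.6 and 85.8 CPM in the MYOD-/- labelled MUNC DM libraries, against 9.70 and 1.42 CPM in GM, a change of 3.91 ± 0.79 (adjusted p = 0.0023). In the MYOD-/- labelled EV line it had 94.5 and 114 CPM in DM and 9.61 and 2.26 CPM in GM, and the change was 4.14 ± 0.80 (adjusted p = 0.0018). The WT-labelled MUNC line had 32.5 and 36.1 CPM in DM and 3.44 and 1.86 CPM in GM, a rise to a lower level (3.69 ± 0.79, adjusted p = 0.0037). With EV, the WT-labelled libraries had 21.2 and 14.2 CPM of Actn3 in DM and 10.1 and 6.92 CPM in GM, apart but not called (1.06 ± 0.72, adjusted p = 0.27, 95% interval -0.52 to 2.63). Without replicate 1 of MYOD-/- MUNC GM the change of Actn3 in that line became 5.89.

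Actn2 (chromosome 13, 12269426 to 12340732) gave 4 to 36 counts per library and 0.10 to 0.552 CPM in all 16 libraries. DM and GM libraries overlapped in both MYOD-/- labelled lines, and the 4 changes lay between -0.48 and 0.80, none of them called. Tcap (chromosome 11, 98383811 to 98384953), whose product binds the end of titin in the Z-disc, reached at most 0.118 CPM. Over the 2 libraries of a group it had 6 counts in MYOD-/- MUNC DM against 4 in GM, and 3 in MYOD-/- EV DM against 4 in GM. The depth-scaled ratios of 1.21 (0.286 to 5.81) and 0.535 (0.0784 to 3.17, 95% exact intervals) show that a change of several fold in Tcap could not be seen at this depth. Intervals of counts cover counting error only.

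Ldb3 encodes the Z-disc protein also known as ZASP or Cypher, which binds alpha-actinin through its PDZ domain, and lies on chromosome 14 (34526699 to 34590314). Unlike Neb, Mybph and Tmod1 it had several CPM in every library, proliferating ones included. Its level in the MYOD-/- labelled MUNC line was 42.2 and 47.5 CPM in DM, against 16.6 and 4.71 CPM in GM, a change of 2.07 ± 0.47 (adjusted p = 0.0045), which became 3.26 without replicate 1 of GM. In the MYOD-/- labelled EV line it had 57.4 and 51.5 CPM in DM, against 19.9 and 11.98 CPM in GM, a change of 1.77 ± 0.47 (adjusted p = 0.011). That second call was lost without replicate 2 of GM (adjusted p = 0.11) or replicate 1 of DM (adjusted p = 0.054). In the WT-labelled MUNC line Ldb3 had 24.0 and 36.1 CPM in DM and 20.6 and 31.1 CPM in GM, which overlapped (0.22 ± 0.45, 95% interval -0.78 to 1.22). In the WT-labelled EV line it had 30.0 and 23.3 CPM in DM and 13.8 and 16.8 CPM in GM (0.80 ± 0.46, adjusted p = 0.19).

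Xirp1 (chromosome 9, 120013755 to 120023598) encodes an Xin repeat protein that binds actin and is found at intercalated discs of the heart and at growing or damaged myofibrils. Xirp1 in the MYOD-/- labelled EV line had 25.6 and 49.3 CPM in DM, against 7.31 and 14.5 CPM in GM, a change of 1.78 ± 0.49 (adjusted p = 0.013). In the MYOD-/- labelled MUNC line it had 12.8 and 26.6 CPM in DM and 9.87 and 21.0 CPM in GM, which overlapped (0.35 ± 0.47, 95% interval -0.69 to 1.40). In MYOD-/- labelled cells its proliferating level was therefore closer to its DM level than was the case for Ttn, Neb or Tmod1. The call in the EV line was lost without replicate 1 of GM (adjusted p = 0.094) or replicate 2 of DM (adjusted p = 0.12). In the WT-labelled MUNC line Xirp1 had 0.707 and 0.622 CPM in DM and 0.396 and 0.361 CPM in GM (0.80 ± 0.61), and in the WT-labelled EV line 0.0548 and 0.149 CPM in DM and 0.178 and 0.114 CPM in GM (-0.58 ± 0.87), neither of them called.

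On the thin filament, Neb and Tmod1 were higher in DM by more than 5 on the log2 scale in both MYOD-/- labelled lines. Neb (chromosome 2, 52136640 to 52338798, overlapping 4930573O16Rik) had 15.0 and 16.3 CPM in the MYOD-/- labelled MUNC DM libraries, against 0.443 and 0.475 CPM in GM. In the MYOD-/- labelled EV line it had 15.3 and 13.6 CPM in DM, against 0.375 and 0.326 CPM in GM. These changes were 5.09 ± 0.48 (adjusted p = 2.4e-05) and 5.36 ± 0.51 (adjusted p = 2.2e-05), with close replicates on either side. In the WT-labelled MUNC line Neb had 6.07 and 2.91 CPM in DM and 0.364 and 0.740 CPM in GM, a change of 3.02 ± 0.45 (adjusted p = 0.00040). In the WT-labelled EV line it had 0.526 and 0.231 CPM in DM and 0.356 and 0.534 CPM in GM, which overlapped (-0.20 ± 0.47, 95% interval -1.25 to 0.84).

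Tmod1 encodes the tropomodulin that caps thin-filament pointed ends in striated muscle and lies on chromosome 4 (46038940 to 46116032), overlapping Tstd2. It had 64.4 and 51.4 CPM in the MYOD-/- labelled MUNC DM libraries, against 1.70 and 0.821 CPM in GM, and 53.7 and 38.0 CPM in the MYOD-/- labelled EV DM libraries, against 0.990 and 0.702 CPM in GM. The changes were 5.51 ± 0.35 (adjusted p = 3.2e-06) and 5.76 ± 0.36 (adjusted p = 2.8e-06). In the WT-labelled MUNC line it had 0.667 and 0.565 CPM in DM and 0.190 and 0.144 CPM in GM (1.84 ± 0.42, adjusted p = 0.0048). In the WT-labelled EV line it had 0.844 and 0.774 CPM in DM and 0.307 and 0.210 CPM in GM (1.63 ± 0.38, adjusted p = 0.0061), the sole member called in that line. Tmod1 was thus called higher in DM in all 4 lines, at levels under 1 CPM in the WT-labelled ones. The WT-labelled EV call was lost without replicate 2 of GM (adjusted p = 0.057).

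Des encodes desmin, the intermediate filament protein of muscle, and lies on chromosome 1 (75360292 to 75368579), overlapping Gm15179. It had 18.7 and 18.9 CPM in the MYOD-/- labelled MUNC DM libraries, against 17.9 and 4.09 CPM in GM, and 22.6 and 22.7 CPM in the MYOD-/- labelled EV DM libraries, against 16.6 and 6.09 CPM in GM. In the WT-labelled MUNC line it had 22.4 and 15.1 CPM in DM and 12.3 and 3.03 CPM in GM, and in the WT-labelled EV line 43.2 and 39.6 CPM in DM and 25.7 and 14.2 CPM in GM. The DM libraries lay above the GM libraries in each line, replicate 2 of GM was the lowest each time, and no change was called by edgeR with all libraries. The changes were 0.77 ± 0.70, 1.00 ± 0.71, 1.28 ± 0.71 and 1.05 ± 0.70 in the order of these lines, with adjusted p from 0.18 to 0.40. Des was called without replicate 1 of MYOD-/- MUNC GM (2.21, adjusted p = 0.042) and without replicate 1 of WT MUNC GM (2.62, adjusted p = 0.042).

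The replicates of the MYOD-/- labelled GM groups stood apart from each other in several genes at once. In MYOD-/- MUNC GM, replicate 1 held 10.2 times the CPM of replicate 2 for Ttn, 6.81 times for Actn3, 4.39 times for Des and 3.52 times for Ldb3, but 0.47 times for Xirp1. In MYOD-/- EV GM the ratios were 4.81 for Ttn, 4.26 for Actn3, 2.73 for Des and 1.66 for Ldb3, and 0.505 for Xirp1. Neb, with ratios of 0.933 and 1.15, did not share this spread. The differentiated muscle markers were mixed: in the MUNC and EV groups Myog had ratios of 13.0 and 2.56 and Tnnt3 6.00 and 13.9. Mymk had 3.35 and 3.85 and Myh3 1.42 and 0.89, while Acta1 went the other way at 0.526 and 0.234. Ckm had a ratio of 3.20 in the EV group and 0 CPM in replicate 2 of the MUNC group. In WT-labelled GM groups replicate 1 was higher too for Des (4.07 with MUNC and 1.81 with EV), Ttn (1.51 and 1.5) and Tnnt3 (4.68 and 4.24). For Ldb3 it was lower there (0.663 and 0.818), and Acta1 had ratios of 0.12 and 1.08. Whether the state of the cultures or their handling moved with these ratios was not tested.

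The second comparison set MYOD-/- labelled against WT-labelled cells within a vector and a medium. In EV DM 6 of the 9 members were higher and 0 lower in the MYOD-/- labelled libraries, where 15.3% of all genes were called higher and 16.1% lower. In MUNC DM 5 were higher and 0 lower (12.8% and 9.89% of all genes). In GM the 3 genes Ttn, Tmod1 and Xirp1 were higher and 0 lower with either vector, against 4.58% higher and 5.77% lower of all genes in EV GM and 4.98% higher and 5.02% lower in MUNC GM. The median difference of the 9 members was 5.23 in EV DM, 1.81 in MUNC DM, 0.06 in EV GM and 0.74 in MUNC GM, against -0.02, 0.01, -0.04 and 0.02 over all genes. These differences reuse the libraries of the DM and GM comparison.

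Xirp1 differed between the labels in every setting. Its differences, MYOD-/- over WT, were 8.54 ± 0.71 in EV DM (adjusted p = 1.6e-05), 4.90 ± 0.58 in MUNC DM (adjusted p = 0.00015), 6.18 ± 0.67 in EV GM (adjusted p = 0.00023) and 5.34 ± 0.61 in MUNC GM (adjusted p = 0.00034). The lowest MYOD-/- labelled library had 7.31 CPM of Xirp1 and the highest WT-labelled library 0.707 CPM. Tmod1 was likewise apart in each setting, by 5.82 ± 0.35 in EV DM (adjusted p = 2.8e-06), 6.56 ± 0.37 in MUNC DM (adjusted p = 2.2e-06), 1.69 ± 0.40 in EV GM (adjusted p = 0.021) and 2.90 ± 0.40 in MUNC GM (adjusted p = 0.0011). Ttn differed by 6.77 ± 1.08 in EV DM (adjusted p = 0.00094), 4.76 ± 0.99 in MUNC DM (adjusted p = 0.0055), 4.06 ± 1.03 in EV GM (adjusted p = 0.028) and 4.70 ± 1.05 in MUNC GM (adjusted p = 0.016). In EV GM the calls of Ttn and Tmod1 were both lost without replicate 1 of WT EV GM (adjusted p = 0.14 and 0.066), replicate 2 of WT EV GM (0.17 and 0.14) or replicate 1 of MYOD-/- EV GM (0.18 and 0.12). In MUNC GM the call of Ttn was lost without replicate 1 (adjusted p = 0.089) or 2 (adjusted p = 0.13) of WT MUNC GM, and without replicate 1 of MYOD-/- MUNC GM its difference became 2.20 (adjusted p = 0.11).

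Neb, Mybph and Actn3 differed between the labels in DM. Neb was higher in the MYOD-/- labelled libraries by 5.23 ± 0.48 in EV DM (adjusted p = 3.1e-05) and by 1.81 ± 0.41 in MUNC DM (adjusted p = 0.0083), and Mybph by 5.94 ± 0.83 (adjusted p = 0.00041) and 3.54 ± 0.71 (adjusted p = 0.0047). Actn3 was higher by 2.56 ± 0.74 in EV DM (adjusted p = 0.0225), and in MUNC DM the difference of 1.29 ± 0.71 was not called (adjusted p = 0.22). In GM the labels overlapped for Neb, Mybph and Actn3 under either vector. Without replicate 2 of WT MUNC DM the MUNC DM calls of Ttn (adjusted p = 0.067), Neb (0.085) and Mybph (0.063) were lost, which left 2 of the 5 members. The EV DM call of Actn3 was lost when any of the 4 libraries was left out, with adjusted p from 0.062 to 0.14.

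Ldb3, Des and Actn2 were not called between the labels by edgeR in any setting with all libraries. The interval of the Des difference was -2.41 to 0.66 in EV DM and -1.52 to 1.54 in MUNC DM, and in EV DM the MYOD-/- labelled libraries (22.6 and 22.7 CPM) lay below the WT-labelled ones (43.2 and 39.6 CPM). For Ldb3 the difference was 1.03 ± 0.46 in EV DM (adjusted p = 0.11, and 0.047 by limma on log2(TPM + 1)) and, with the opposite sign, -1.28 ± 0.46 in MUNC GM (adjusted p = 0.11), where the MYOD-/- labelled libraries had 16.6 and 4.71 CPM and the WT-labelled libraries 20.6 and 31.1 CPM. That MUNC GM difference was called by DESeq2 (-1.27, adjusted p = 0.044) and, in edgeR, without replicate 1 of MYOD-/- MUNC GM (-2.47, adjusted p = 0.0038).

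**Figure D3:**
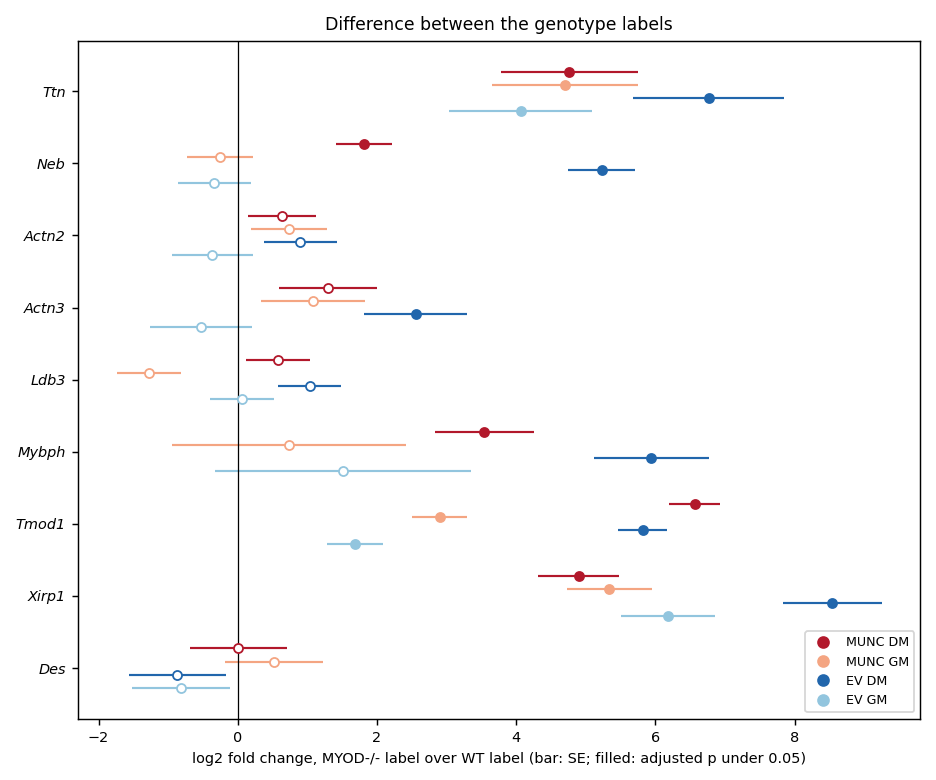
Log2 fold change of the MYOD-/- label over the WT label (x axis) for the 9 members tested (rows) under each vector and medium, with bars of 1 SE and filled points where the adjusted p is under 0.05. Ttn, Tmod1 and Xirp1 are filled in all 4 settings, and Neb and Mybph in the 2 DM settings.

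The third comparison set MUNC against EV. In WT-labelled DM cells 3 of the 9 members were higher and 0 lower with MUNC (15.6% of all genes were called higher and 17.7% lower), the 3 of them from levels under 1 CPM in the EV libraries. Neb had 6.07 and 2.91 CPM in the MUNC DM libraries and 0.526 and 0.231 CPM in the EV DM libraries, a difference of 3.53 ± 0.46 (adjusted p = 0.00018). Mybph had 4.16 and 1.75 CPM with MUNC and 0.483 and 0.136 CPM with EV (3.20 ± 0.76, adjusted p = 0.0079). Xirp1 had 0.707 and 0.622 CPM with MUNC and 0.0548 and 0.149 CPM with EV (2.72 ± 0.70, adjusted p = 0.012). The call of Mybph was lost without replicate 2 of WT EV DM (adjusted p = 0.068) or replicate 1 of WT MUNC DM (adjusted p = 0.062), and that of Xirp1 without replicate 1 of WT EV DM (adjusted p = 0.092). Ttn, at 17.9 and 12.3 CPM with MUNC and 4.40 and 5.63 CPM with EV, was apart but not called (1.59 ± 0.88, adjusted p = 0.19). Tmod1, the other thin-filament gene, was not called: it had 0.667 and 0.565 CPM with MUNC and 0.844 and 0.774 CPM with EV (-0.41 ± 0.33, 95% interval -1.14 to 0.32).

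In WT-labelled GM cells 0 of the 9 members were called between MUNC and EV by edgeR, DESeq2 or limma (6.04% of all genes were called higher and 7.71% lower by edgeR), and 1 member, Actn3, had an unadjusted p under 0.05 in edgeR. Actn3 had 3.44 and 1.86 CPM with MUNC and 10.1 and 6.92 CPM with EV (-1.68 ± 0.75, adjusted p = 0.17). In MYOD-/- labelled cells no member was called in DM or in GM, where 0.0% of all genes were called by edgeR in each medium. MUNC itself was among the genes tested, so it was not called in these cells either. It had 2012 and 2670 CPM in the WT-labelled MUNC DM libraries. In MYOD-/- labelled DM it had 43.0 and 50.4 CPM with MUNC and 12.4 and 2.23 CPM with EV, so the labels are compared at unlike MUNC levels. At an unadjusted p under 0.05 edgeR had 152 genes in DM and 191 in GM of MYOD-/- labelled cells, none of them a member. At the adjusted threshold DESeq2 called 4 genes in DM and 0 in GM and limma on log2(TPM + 1) 7 and 3. The widest member differences there were those of Xirp1 in DM, at 12.8 and 26.6 CPM with MUNC and 25.6 and 49.3 CPM with EV (-0.93 ± 0.48, 95% interval -1.97 to 0.12), and of Mybph in DM, at 43.5 and 24.6 CPM with MUNC and 23.6 and 15.6 CPM with EV (0.80 ± 0.64, interval -0.61 to 2.21). For Tmod1 in DM the interval of -0.28 to 0.95 leaves room for less than a 2-fold change, while for Ttn it ran from -2.26 to 1.43.

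Whether the response to DM differed between the labels was tested as a difference of differences. Tmod1 responded more strongly in the MYOD-/- labelled cells with either vector, by 3.67 ± 0.56 with MUNC (adjusted p = 0.0099) and 4.13 ± 0.53 with EV (adjusted p = 0.0047). Neb did so with EV, by 5.57 ± 0.69 (adjusted p = 0.0040), from a change of 5.36 in the MYOD-/- labelled and -0.20 in the WT-labelled line. These were the 1 member of 9 called with MUNC (1.24% of all genes were called higher and 0.14% lower) and the 2 called with EV (1.66% and 0.922%). With MUNC, the difference of Neb was 2.07 ± 0.62, which edgeR did not call (adjusted p = 0.18). DESeq2 (2.06, adjusted p = 0.042) and limma on log2(TPM + 1) (0.83, adjusted p = 0.0044) called it. For Ttn the responses differed by 0.07 ± 1.37 with MUNC (95% interval -2.93 to 3.07) and 2.70 ± 1.32 with EV (adjusted p = 0.32), so its larger change in the MYOD-/- labelled EV line was not distinguished from that of the WT-labelled one. The call of Tmod1 with MUNC was lost without replicate 1 of WT MUNC GM (adjusted p = 0.11) or replicate 2 of WT MUNC DM (adjusted p = 0.054).

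Between vectors, the response to DM differed for 1 member in WT-labelled cells: Neb rose by 3.22 ± 0.65 more with MUNC than with EV (adjusted p = 0.022, with 1.24% of all genes called higher and 2.09% lower). That call was lost without replicate 2 of WT EV GM (adjusted p = 0.11), replicate 2 of WT EV DM (0.076), replicate 1 of WT MUNC GM (0.092) or replicate 1 of WT MUNC DM (0.081). The response of Tmod1 differed by 0.22 ± 0.57 (95% interval -1.03 to 1.47) and that of Actn3 by 2.63 ± 1.03 (adjusted p = 0.21). In MYOD-/- labelled cells no member and 0.0% of all genes were called by edgeR, with 114 genes at an unadjusted p under 0.05, 0 called by DESeq2 and 1 by limma. The 9 member values there lay between -1.43 (Xirp1) and 1.23 (Mybph).

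Several members belong to families whose other genes are expressed in non-muscle cells, and TPM shares within these families place the changes. The shares are descriptions, without a test. Actn3 made up 12.4% to 14.6% of the alpha-actinin TPM in the MYOD-/- labelled DM libraries, against 0.167% to 1.39% in the MYOD-/- labelled GM libraries. In WT-labelled libraries it made up 2.66% to 4.27% in DM and 0.132% to 1.12% in GM. The non-muscle alpha-actinins Actn1, at 152 to 454 TPM, and Actn4, at 197 to 418 TPM, held most of the family in each library, and Actn2 at most 0.0783%. Actn4 was lower in DM in 3 lines (-0.70 ± 0.23 in MYOD-/- MUNC, -0.63 ± 0.23 in WT MUNC and -0.94 ± 0.23 in WT EV), and Actn1 in the WT-labelled EV line (-0.92 ± 0.23, adjusted p = 0.0083).

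The tropomodulins showed the sharpest shift. Tmod1 was 47.3% to 54.5% of tropomodulin TPM in the MYOD-/- labelled DM libraries, against 1.38% to 3.34% in the MYOD-/- labelled GM libraries and 0.283% to 1.82% in all WT-labelled libraries. Tmod3, the widely expressed tropomodulin, stayed between 28.2 and 47.1 TPM in all 16 libraries, and its changes with DM lay between -0.10 and 0.20, none of them called. Tmod2 and Tmod4 were under 0.6 TPM throughout. In differentiating MYOD-/- labelled cells Tmod1 thus reached about the TPM of Tmod3, whose own level differed little.

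**Figure D4:**
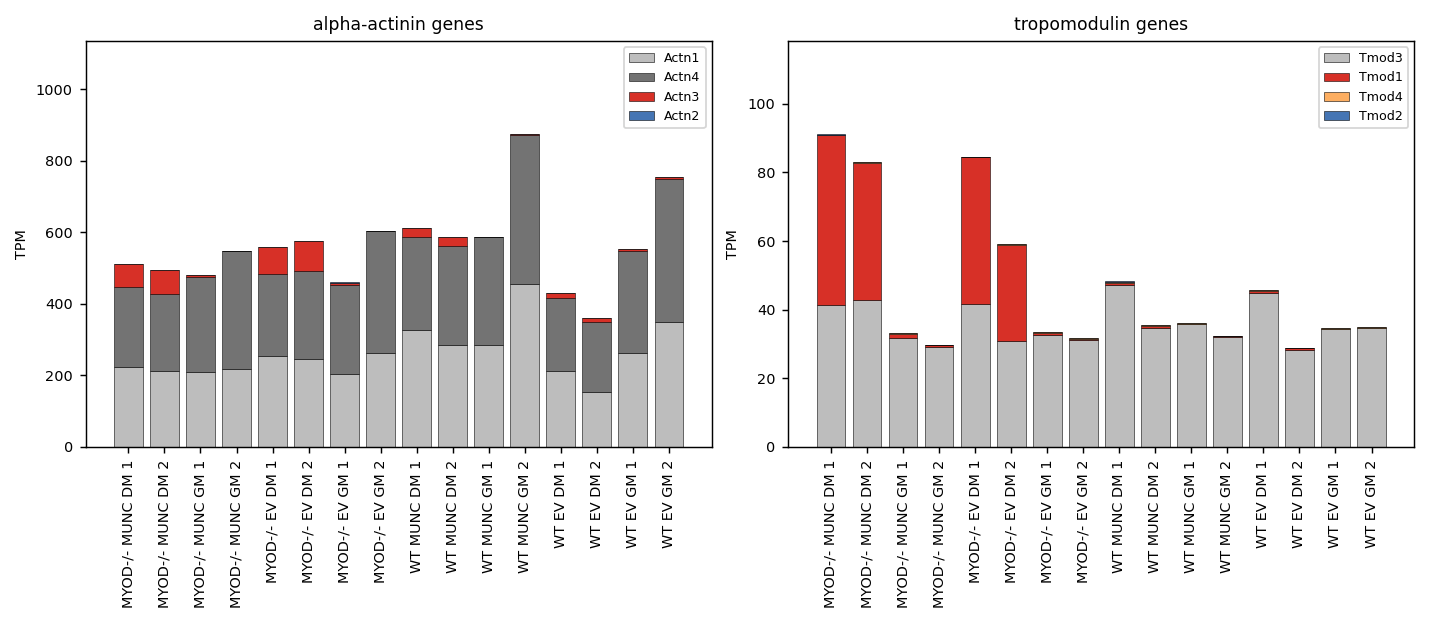
TPM of the alpha-actinin genes (left) and of the tropomodulin genes (right) as stacked bars, 1 bar a library. The red Actn3 segment, 12.4% to 14.6% of its bar, and the red Tmod1 segment, 47.3% to 54.5%, stand out in the 4 MYOD-/- labelled DM libraries.

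Desmin RNA stayed a small part of the desmin and vimentin RNA, and other intermediate filament genes were not in this sum. Des was 0.0165% to 0.734% of the summed TPM of Des and Vim, with Vim, the vimentin of mesenchymal cells and myoblasts, at 3703 to 10703 TPM. The highest shares were in WT-labelled EV DM, at 0.734% and 0.673%, where Vim was lowest and was lower than in GM by 1.23 ± 0.19 (adjusted p = 0.00065). Of the Xin pair, Xirp1 held 47.8% to 94.9% of the TPM over the 16 libraries. Xirp2 was higher in DM in both MYOD-/- labelled lines (1.60 ± 0.41 with MUNC and 2.12 ± 0.42 with EV) and lower in DM in the WT-labelled MUNC line (-2.63 ± 0.56). The levels in the WT-labelled MUNC line were very low, at 0.0136 and 0.0182 TPM in DM and 0.130 and 0.0511 TPM in GM. Nebl, the nebulin relative of heart muscle, was at most 0.05 TPM and did not pass the filter on low counts.

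The files resolve 7 transcripts of Ldb3 and 2 of Ttn, whose estimates share exons and carry no test. Of the Ldb3 transcripts NM_001039071, of 4854 bases, was highest in most libraries. The transcript NM_011918, of 5040 bases, was estimated at 8.02 and 5.86 TPM in MYOD-/- MUNC DM, against 0 and 0.348 TPM in GM, and at 8.41 and 5.07 TPM in MYOD-/- EV DM, against 0.336 and 0.174 TPM in GM. In the WT-labelled libraries it reached 0.813 and 1.68 TPM in MUNC DM, against 0.328 and 0.827 TPM in GM, and 2.33 and 2.18 TPM in EV DM, against 0.519 and 0 TPM in GM. Its level was thus near 0 in MYOD-/- labelled GM and among the 2 highest Ldb3 transcripts in MYOD-/- labelled DM. As a share of Ldb3 TPM it was less distinct, at 20.7% to 38.8% in MYOD-/- labelled DM. In MYOD-/- labelled GM the shares were 0.0027% and 18.7% with MUNC and 4.17% and 3.80% with EV. In WT-labelled DM they were 6.97% and 10.8% with MUNC and 17.8% and 22.8% with EV. The shorter forms NM_001039075 (1506 bases) and NM_001039076 (1623 bases) reached at most 0.256 and 4.14 TPM. For Ttn the transcript of 81931 bases, NM_028004, took 68.3% to 81.6% of the TPM in the MYOD-/- labelled libraries, in DM and GM alike.

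**Figure D5:**
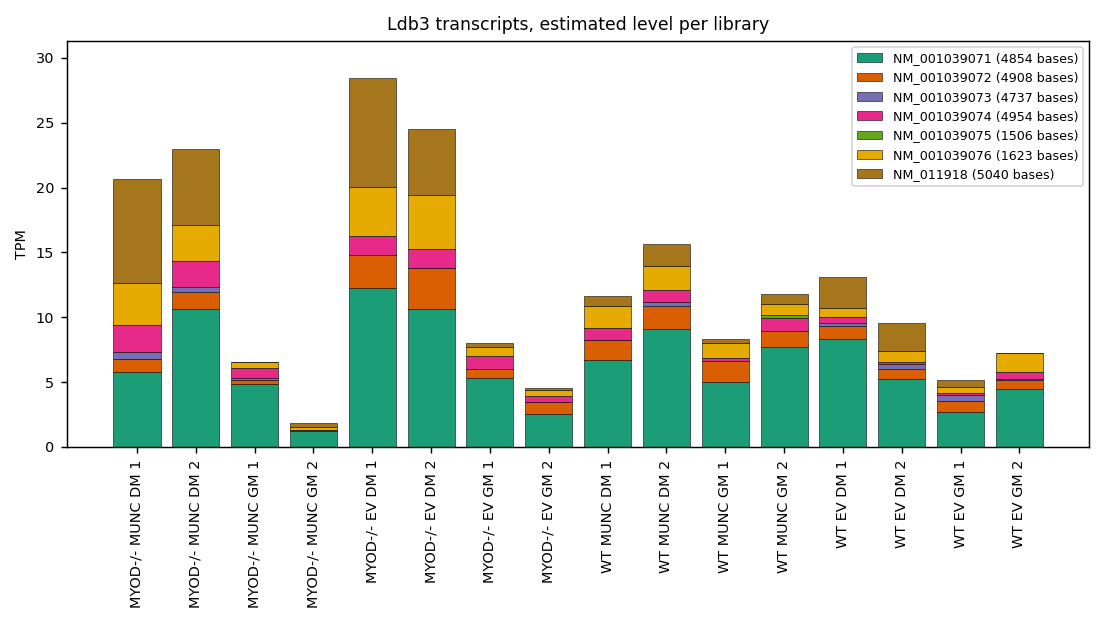
Estimated TPM of the 7 Ldb3 transcripts as stacked bars, 1 bar a library. The NM_011918 segment, 5.07 to 8.41 TPM in the 4 MYOD-/- labelled DM libraries, is at most 0.348 TPM in the 4 MYOD-/- labelled GM libraries.

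A wider set of 55 scaffold genes was counted in 4 groups. Of the 23 Z-disc genes tested, 14 were higher and 1 lower in DM in the MYOD-/- labelled MUNC line, 13 and 0 in the MYOD-/- labelled EV line, 7 and 4 in the WT-labelled MUNC line and 0 and 6 in the WT-labelled EV line, with median changes of 0.80, 0.86, 0.24 and -0.17. Over all genes the shares called higher and lower in these lines were 24.4% and 20.4%, 23.5% and 19.7%, 20.5% and 19.2%, and 19.2% and 18.3%, and the counts of the 4 groups are to be read against them. Myoz2, a calsarcin that ties calcineurin to the Z-disc, had 1.84 and 2.36 CPM in MYOD-/- MUNC DM, against 0.0458 and 0.0365 CPM in GM (5.60 ± 0.58). Smpx, a small stress-responsive muscle protein, had 0.890 and 0.723 CPM in MYOD-/- MUNC DM, against 0.0153 and 0 CPM in GM (6.30 ± 1.15), and 0 counts in all WT-labelled EV libraries. Mypn, encoding myopalladin, changed by 4.68 ± 0.76 in the MYOD-/- MUNC line and 4.50 ± 0.89 in the WT MUNC line. The 6 lower genes of the WT-labelled EV line were led by Fhl1 (-1.82 ± 0.44) and Ankrd1 (-1.26 ± 0.31), which encode a LIM-domain protein and a stress-responsive ankyrin repeat protein.

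The M-band and thick-filament group had genes called higher in DM in every line. Of its 9 genes tested, 6, 6, 7 and 4 were higher in DM in the MYOD-/- MUNC, MYOD-/- EV, WT MUNC and WT EV lines, and 1 was lower, in WT EV, where 19.2% of all genes were called higher and 18.3% lower. Myom1, which encodes myomesin of the M-band, changed by 4.44 ± 0.32, 4.98 ± 0.34, 2.92 ± 0.33 and 1.47 ± 0.33 in these lines. Trim63, encoding the ubiquitin ligase MuRF1 that binds titin near the M-band, changed by 3.98 ± 0.42, 4.38 ± 0.47, 4.27 ± 0.44 and 3.73 ± 0.40, so it was called in the WT-labelled EV line too.

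Of the 11 thin-filament genes, 5 were higher in DM in each of the MYOD-/- MUNC, MYOD-/- EV and WT MUNC lines and 0 in WT EV, with 0, 1, 1 and 2 lower, and the 2 lower of 11 in WT EV are near the 18.3% of all genes called lower there. Lmod2, a leiomodin that nucleates actin filaments, had 3.73 and 3.64 CPM in MYOD-/- MUNC DM, against 0.0305 and 0.0183 CPM in GM (7.10 ± 0.76). Klhl40 and Klhl41, which encode Kelch proteins that stabilise nebulin and leiomodin, changed by 7.01 ± 1.06 and 4.96 ± 0.49 in the MYOD-/- EV line. Lmod1, the leiomodin of smooth muscle, was lower in DM in the WT-labelled EV line (-3.14 ± 0.45). Of the 6 intermediate filament and costamere genes, 3, 3, 2 and 0 were higher in the 4 lines and 1, 0, 3 and 3 lower, against 19.2% to 24.4% of all genes called higher and 18.3% to 20.4% lower, led by Synm, the desmin partner synemin (3.30 ± 0.65 in MYOD-/- MUNC and 3.47 ± 0.66 in MYOD-/- EV).

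Over the 8 group means of log2 CPM, 5 members followed the mean standardised profile of the members closely: Mybph (Pearson's r = 0.979), Neb (0.95), Ttn (0.949), Actn3 (0.949) and Tmod1 (0.943). Actn2 (0.788, at few counts), Ldb3 (0.779), Xirp1 (0.596) and Des (0.475) followed it less. Each member is part of the profile, and the groups share libraries with the comparisons above, so these values describe the plot of levels by library and are no test. The other genes closest to that profile were Wdr44 (0.995), Srl (0.994), Myom1 (0.994), Kif3c (0.993), Rab3a (0.992), Notch2 (0.991), Cd82 (0.991) and Asb2 (0.990), of the 14972 tested.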

How the data were processed

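Poly(A) RNA of 16 C2C12 libraries was sequenced as read pairs after RNeasy purification and NEBNext Ultra Directional preparation, per the labels' protocols. The submitters' processing notes name mm10, kallisto and bcl2fastq, while their versions and the strand setting were not given in the sources used here. Per the file headers, the authors deposited kallisto's estimated counts and TPM for 35818 transcripts per library. Of these, 35492 were named through RefSeq GRCm38.p6 and 188 through GENCODE M21, and 138 without a symbol (0.280% to 0.941% of counts) were left out.

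For each gene the estimated counts of its transcripts were summed, then rounded to whole numbers. The package edgeR 4.0.16 (R 4.3.3; TMM, filterByExpr, 1 mean per group, all 16 libraries, quasi-likelihood F test, Benjamini-Hochberg over 14972 genes, threshold 0.05) gave each comparison, with 8 residual and 3.19 prior degrees of freedom and a common dispersion of 0.0474. SEs and 95% intervals are those of this model. Groups came from the labels. Alternatives were DESeq2 1.42.0, its size factors, no filter, at least 5 CPM in 2 libraries, an effective length offset, limma 3.58.1 on log2(TPM + 1), a replicate block and each library left out. Every member is described. From the wider lists, up to 3 called genes per list with the largest change were eligible as examples, with the relatives of members, and the 8 genes most like the members were named. The members and lists were chosen with earlier results of these data known. Motifs were searched in the RefSeq promoter table. Gene coordinates are those of GRCm38, counted from 1.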

Additional observations from a re-analysis of the deposited data

Results flagged for a closer look

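Differences between lines in the response to DM passed the test for 2 members. For Tmod1 the change was larger in the MYOD-/- labelled than in the WT-labelled cells by 3.67 on the log2 scale with MUNC and by 4.13 with EV. Both MYOD-/- labelled DM libraries lay above both GM libraries in each of these lines, as did the WT-labelled ones, so the size and not the direction of the change differed. For Neb the change was larger in the MYOD-/- labelled cells by 5.57 with EV, and in WT-labelled cells it was larger with MUNC than with EV by 3.22. The WT-labelled EV line, in which Neb stayed at 0.231 to 0.534 CPM in both media, enters both of the Neb differences, so they share its 4 libraries. These values came from the interaction terms of the model, and their cause was not tested.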

How the results depend on the processing

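Of the 16 counts of members called, those for DM against GM in both MYOD-/- labelled lines, for the labels in EV DM and for MUNC against EV stayed within 1.5 times under each alternative run. With 1 library left out at a time, where the lone library of a group is assumed to vary like the others, the counts ranged from 0 to 2 for DM against GM in WT EV, from 2 to 5 for the labels in MUNC DM, from 1 to 3 for the labels in EV GM, from 0 to 2 for the label interaction with MUNC and from 0 to 1 for the vector interaction in WT-labelled cells. DESeq2 called 3 members in WT EV (Ttn, Mybph and Tmod1) and 2 in the label interaction with MUNC, and the fit without a filter called 3 in WT EV. On log2(TPM + 1), limma called 3 members in WT MUNC, 0 in WT EV, 1 for the labels in MUNC GM and 1 in EV GM, 4 and 5 in the label interactions with MUNC and EV, and 0 in the vector interaction of WT-labelled cells. The pseudocount of 1 understates changes of genes under 1 TPM, such as those of Ttn, Neb and Tmod1 in the WT-labelled lines. Where the MYOD-/- labelled change is less affected, it enlarges the label interaction. For Ttn with MUNC this interaction was 0.07 in edgeR and 2.52 by limma on log2(TPM + 1) (adjusted p = 0.0068). No call changed sign; 84 single-gene values, 73 of them with a library left out, turned sign where neither value was called. DESeq2's size factors shifted the median of all genes by under 0.1 in each comparison.

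With the replicate block, 3 members were called for DM against GM in WT EV in place of 1 (Ttn, adjusted p = 0.044, and Mybph, adjusted p = 0.0057, were added), and Des in WT MUNC (1.46, adjusted p = 0.036) and Actn3 in the label interaction with EV (3.31, adjusted p = 0.047) were added, while no call was lost. The deviations of same-numbered libraries correlated between -0.0126 and 0.712 over 28 pairs of groups, 23 of them over 0.1. Each pair not over 0.1 included MYOD-/- MUNC DM, while pairs of GM groups correlated at 0.508 to 0.712. Same-numbered GM libraries thus deviated alike, and Zrsr1 divides replicate 1 from replicate 2 in each group. The numbers were still not taken to pair the samples, since not every pair was over 0.1. Over all genes, the block raised the calls between the labels in EV DM from 4699 to 6014.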
